A study of Rattus norvegicus with 6 samples.

Results

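The genes described here encode the proteins of the cytosolic ribosome. They were chosen by name: every array feature whose platform gene symbol was Rpl or Rps followed by a digit, together with Rpsa, Rplp0, Rplp1 and Rplp2, and without Rps6k kinases or pseudogene symbols. The rule gave 71 genes with 132 probes, of 14871 named genes on the array. Of the 71 genes, 45 were named for the large subunit and 25 for the small subunit, and 1, Rps19bp1, encodes a protein that binds Rps19 and is not itself part of the ribosome. A value on all 6 arrays was present for 70 genes, and Rpl39l1 had a value on none. Between 1 and 5 probes measured each gene, with 32 genes on a single probe.

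The study asked how repeated tickling, used to mimic the rough play of young rats, altered gene expression in the striatum, the salivary glands and peripheral leukocytes. Male Wistar rats were weaned, housed singly behind screens and, from 21 days of age, tickled, lightly touched or left without a stimulus on each weekday for 4 weeks. A session alternated 15 s of rest with 15 s of stimulation, and tissue was taken at 60 days of age. Each tissue was measured on 2 two-colour arrays, with RNA of tickled rats in Cy5 on both and RNA of rats given no stimulus or light touch in Cy3.

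The labels name no altered genotype, and all groups were housed singly. The labels give 4 animals for each condition and 1 replicate for each array, and do not say whether an array held 1 animal or a pool. The extraction text names the hypothalamus for every sample, whereas the tissue label names the 3 tissues used here. Against the tissue label, 9 of 11 granular duct markers had a value on both arrays of salivary glands, 1 in striatum and 2 in leukocytes. Of 12 medium spiny neuron markers, 10 had a value in striatum, 5 and 7 on the gland arrays and 3 in leukocytes. T cell markers did not set leukocytes apart, with a value for 11 of 15 in leukocytes, 13 in salivary glands and 7 in striatum. Every comparison rested on 1 array with no dye swap, so no error between animals, no test and no p-value can be given. A value is a log2 ratio of tickled over comparator, read in the direction of the dyes, and 0.32 on this scale, which is 25% more RNA in the higher sample than in the lower one, is used as the fold for counting (the 25% fold). Both arrays of a tissue share the tickled side, so a value seen on both is not an independent repeat. These are bulk samples, in which fewer cells of a type and less RNA per cell cannot be told apart.

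A ribosome is assembled from a large and a small subunit, each a core of ribosomal RNA with its own set of proteins, most of them needed in equal amounts. In mammals the mRNAs of these proteins carry a run of pyrimidines at their 5′ end, the TOP motif, through which mTOR signalling sets how strongly they are translated together. Naive lymphocytes, neutrophils and platelets are known to differ widely in how much ribosomal protein mRNA they hold, so levels in blood also follow which cells are present. Many processed pseudogenes copy these genes, and whether a probe also read a near-identical copy was not tested, since probe sequences were not used here.

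The 5′ ends were read from the RefSeq promoter table of build GRCr8, which held 60 of the 71 genes. A window of 30 bases is given, 10 before and 20 from the start in that table, on the strand of the gene. Capitals mark a run of at least 5 bases that holds only C and T, counted from a C within 5 bases of that start. This is the shape of a TOP motif. Pyrimidines before that C stay in lower case, so the full stretch can begin further upstream, as in Rps24 and Rpl29. The first 4 sequences belong to genes that were lower on both leukocyte arrays, with a run at the start.
Rps24, chr16:96507-96536, plus strand: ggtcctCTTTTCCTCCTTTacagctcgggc
Rpl31, chr9:49143101-49143130, plus strand: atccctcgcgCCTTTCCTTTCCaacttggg
Rpl23, chr10:83272165-83272194, minus strand: cttcctttctgaCTCTTTCCggacgctcaa
Rps21, chr3:187724028-187724057, plus strand: agccaCTTCCTTTCTgtgttctccgtagac
The next 2 are from Rpl29 and Rpl10a, which also hold a run but were among the 5 highest genes in leukocytes versus light touch.
Rpl29, chr8:115947633-115947662, plus strand: tttctCTTTCTCTTCCggtcccaggcgctg
Rpl10a, chr20:6390523-6390552, plus strand: cttctgCCTTCTTTTCCggttcccgcagcc
The last 2 hold no run by this rule: Rpl3l, a striated-muscle form of Rpl3 that was the highest gene in leukocytes, and Rps15a, which was lower there on both arrays.
Rpl3l, chr10:14258436-14258465, plus strand: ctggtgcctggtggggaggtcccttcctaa
Rps15a, chr1:181860265-181860294, minus strand: ttttctttccacagtcaccatggtgcgaat

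As a group, the ribosomal protein genes had their lowest median in leukocytes versus no stimulus. In leukocytes versus light touch the median lay about as far below 0 as that of striatum versus no stimulus lay above it. Their median log2 ratio was 0.07 in striatum versus no stimulus and 0.00 versus light touch. In salivary glands it was -0.01 versus no stimulus and 0.03 versus light touch. In leukocytes it was -0.17 versus no stimulus and -0.09 versus light touch. The median of all named genes lay between -0.02 and 0.01 on the 6 arrays, so centring an array moves these values little. The leukocyte arrays gave the lowest 2 of the 6 medians. For single genes, the SD between probes of a gene is the only measure of error within an array, and it holds no variation between animals. Its median over the genes was 0.085 and 0.057 in striatum, 0.089 and 0.067 in the glands, and 0.079 and 0.156 in leukocytes.

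**Figure D1:**
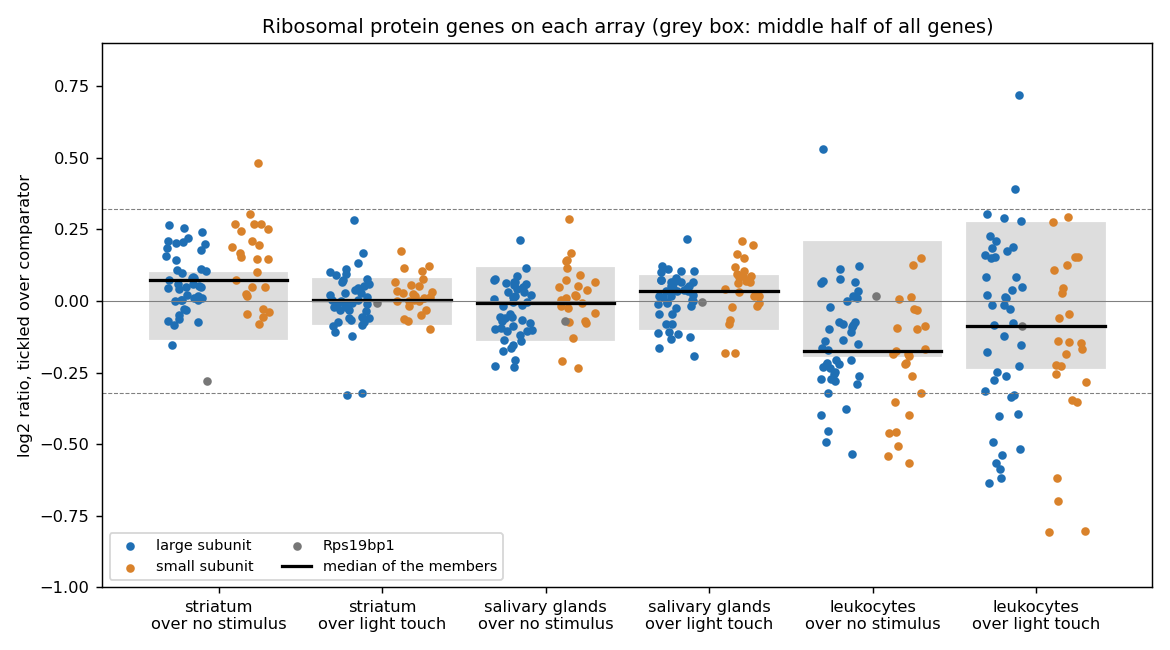
Log2 ratio of tickled over comparator (y axis) of each ribosomal protein gene on each of the 6 arrays (x axis), 1 point a gene, blue for the large subunit, orange for the small subunit and grey for Rps19bp1. Black bars are the medians of these genes, grey boxes the interquartile range of all named genes, and dashed lines the 25% fold either way: the genes sit within the dashed lines in salivary glands and spread below the lower one in leukocytes.

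In striatum versus no stimulus, 56 of 70 genes were above 0, against 45.1% of all genes. Past the 25% fold there was 1 gene higher, Rps26, where 3.65% of all genes were, and 0 lower, where 5.35% were. Rps26, a small-subunit protein that lies beside the mRNA exit channel, was at 0.48, a ratio of 1.40. The next highest were the small-subunit genes Rps29 at 0.31, Rps16 at 0.27, Rps23 at 0.27 and Rps25 at 0.27. All of the 5 highest genes on this array thus belonged to the small subunit, whose median was 0.15 against 0.06 for the large subunit. The lowest was Rps19bp1 at -0.28, followed by Rpl7l1 at -0.15.

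Versus light touch in striatum the genes were more tightly grouped, with an interquartile range of 0.0881 against 0.157 for all genes. Above 0 lay 40 of 70, against 49.1% of all genes. The count past the 25% fold was 0 higher, where 2.92% of all genes were, and 1 lower, where 2.7% were. That gene was Rpl9, a large-subunit protein, at -0.33, but its 3 probes disagreed and the probe nearest 0 gave 0.02. Rpl13a, a large-subunit protein that is often used as a reference gene in PCR, was highest at 0.28, with probes at 0.12 and 0.45. For the 5 genes named as highest versus no stimulus, the values versus light touch were 0.07 for Rps26, 0.17 for Rps29, 0.12 for Rps16, 0.02 for Rps23 and 0.08 for Rps25. All 5 were thus above 0 versus light touch too, and all were lower than versus no stimulus. The arrays share the tickled side, and 35 of 70 genes were above 0 on both, against 32.3% of all genes.

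In salivary glands no ribosomal protein gene passed the 25% fold in either direction on either array. Versus no stimulus 8.33% of all genes were past it higher and 8.27% lower, and versus light touch 3.71% higher and 3.82% lower. The members ran from -0.23 to 0.29 versus no stimulus, with an interquartile range of 0.139 against 0.252 for all genes. On that array all 9 measured granular duct markers were higher past the 25% fold, with a median of 2.75, and all 7 measured mucous acinar markers lower, with a median of -3.99. Ribosomal protein genes thus kept to a narrow band on an array on which gland cell markers differed by several log2 units, and the part of those cells in the ribosomal values was not tested. Versus light touch the granular duct median was -0.19 and the mucous median -0.07, and the ribosomal interquartile range was 0.0935 against 0.184.

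Within the glands, Rps24 was highest versus no stimulus at 0.29 and stood at 0.20 versus light touch, with all 3 of its probes above 0 on both arrays. Rpl17, a large-subunit protein at the exit of the peptide tunnel, was highest versus light touch at 0.22 and was at 0.11 versus no stimulus. At the low end versus no stimulus lay Rps2, Rpl8 and Rpl28, each at -0.23. Versus light touch Rps2 was at -0.18 and Rpl28 at -0.13, whereas Rpl8 was at 0.02. Rpl8 was therefore the gene on which both gland arrays differed most, by 0.25. In the glands 31 of 70 genes were above 0 on both arrays and 23 below, against 33.6% and 35.2% of all genes.

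In leukocytes the genes spread further than in the other tissues, as all genes did: the interquartile range was 0.241 versus no stimulus, against 0.399 for all genes, and 0.428 versus light touch, against 0.506. Versus no stimulus, 13 of 70 genes (18.6%) were lower past the 25% fold, against a background of 14.4% of all genes, and 1 (1.43%) was higher, against 13.4%. Versus light touch 17 (24.3%) were lower, against 17.7%, and 2 (2.86%) were higher, against 20.6%. The share of lower genes was thus near the background on each array, while the share of higher genes was well under it. On both arrays 10 of 70 genes (14.3%) were lower past the 25% fold, against 7.11% of all genes, and 1 was higher, against 6.06%. At 1.5-fold versus light touch, 7 genes were lower, against 5.06% of all genes, and 1 higher, against 8.09%. Versus no stimulus 0 passed 1.5-fold, where 3.21% of all genes were higher and 2.90% lower. Both arrays share the tickled side. Below 0 on both lay 38 of 70 genes, against 32.3% of all genes, and above 0 on both lay 12, against 36.2%.

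The 10 genes lower on both leukocyte arrays came from both subunits. Among small-subunit genes, Rps24, whose human gene is mutated in Diamond-Blackfan anaemia, was at -0.54 versus no stimulus and -0.80 versus light touch, 1.46-fold and 1.75-fold lower. Rps25, needed by several viral RNAs for their translation, was at -0.40 and -0.80, and Rps3a at -0.35 and -0.70. In leukocytes Rps24 was read by 2 probes and Rps25 by 3, and the highest of these readings on either array was -0.37, whereas Rps3a had 1 probe. Rps15a was at -0.46 and -0.62, and Rps21 at -0.51 and -0.35. The small-subunit genes among the 10 thus included the pair with the lowest values versus light touch.

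Among large-subunit genes, Rpl23, which can bind the p53 regulator Mdm2, was at -0.53 versus no stimulus and -0.56 versus light touch. Rpl31 was at -0.45 and -0.62, and Rpl35a, another gene mutated in Diamond-Blackfan anaemia in people, at -0.49 and -0.40. Rpl30 stood at -0.38 and -0.51 and Rpl39, a small protein lining the peptide exit tunnel, at -0.40 and -0.49. In striatum, on the same pair of comparisons, the values were 0.21 and 0.09 for Rpl23, 0.11 and 0.08 for Rpl31, 0.22 and 0.04 for Rpl30, and 0.08 and 0.05 for Rpl39. These 4 genes were therefore on opposite sides of 0 in striatum and in leukocytes, a difference that no test covers. Rpl35a, at 0.11 and -0.01 in striatum, was not, and neither was the small-subunit gene Rps15a, at 0.15 and -0.05.

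Other low genes were low on 1 leukocyte array more than on the other. Rps15, a small-subunit protein needed to export the maturing subunit from the nucleus, was the lowest gene versus no stimulus at -0.57, with probes at -0.79 and -0.35, and was at -0.28 versus light touch. Rps27 was at -0.46 and -0.23. In the other direction, Rpl41, the smallest ribosomal protein, was at -0.29 versus no stimulus and -0.64 versus light touch, Rpl9 at -0.32 and -0.59, and Rpl37l1 at -0.09 and -0.54. Of the 3 probes of Rpl9, 1 read -0.40 and -0.41, so the gap for Rpl9 rests on the others. The 4 probes of Rpl37l1 versus light touch ran from -1.01 to -0.06, so its value there depends on the probe.

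Above 0 in leukocytes lay 16 of 70 genes versus no stimulus and 28 versus light touch, against 52.0% and 51.4% of all genes. Rpl3l was at 0.53 versus no stimulus and 0.72 versus light touch, 1.45-fold and 1.65-fold higher, and the lowest reading of its 2 probes on these arrays was 0.47. Its ordinary partner Rpl3, a core protein of the large subunit near the peptidyl transferase centre, was at -0.17 and 0.28. Rpl29 was at 0.00 versus no stimulus and 0.39 versus light touch, with all 4 probes at 0.34 or more on the second array. Rpl10a was at 0.08 and 0.30 and Rpl35 at 0.07 and 0.29. Rpl3l was the only gene higher past the 25% fold on both arrays.

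**Figure D2:**
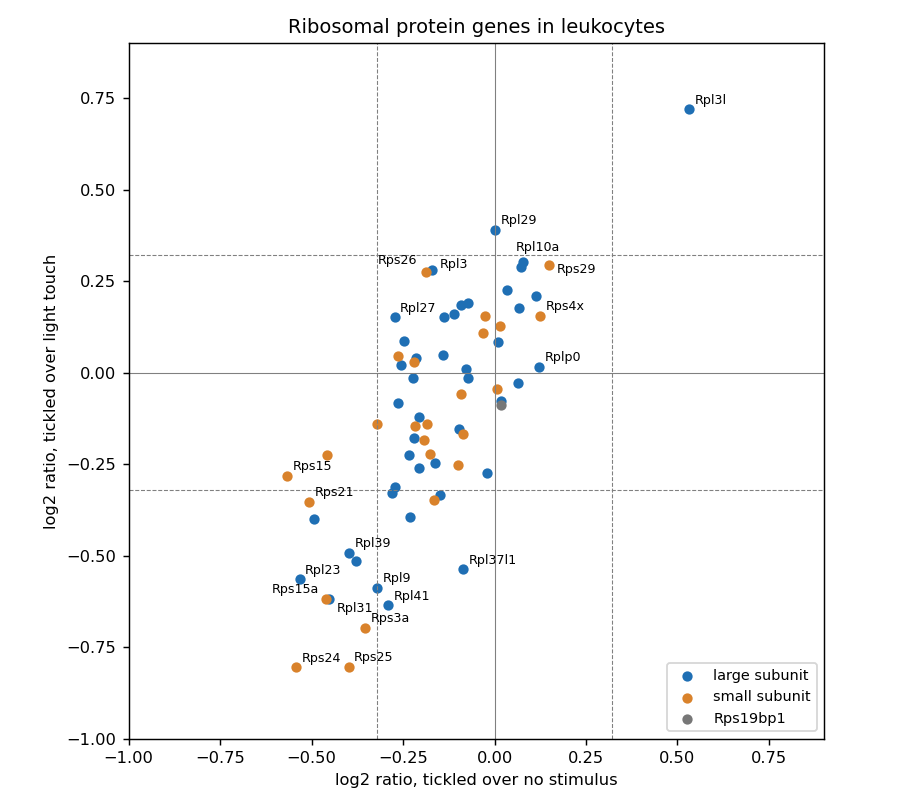
Log2 ratio in leukocytes of tickled versus no stimulus (x axis) and versus light touch (y axis) for 70 ribosomal protein genes, 1 point a gene, coloured by subunit. Dashed lines mark the 25% fold: 10 genes lie past both in the lower left, Rpl3l alone past both in the upper right, and both axes share the tickled RNA.

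Both arrays of a tissue also give light touch versus no stimulus, as the difference of their values, provided that they held the same tickled RNA, which the labels do not state. This derived median was 0.06 in striatum, -0.04 in the glands and -0.06 in leukocytes. In leukocytes it was highest for Rpl37l1 at 0.45 and Rps25 at 0.40, and lowest for Rps26 at -0.46 and Rpl3 at -0.45. In striatum it was highest for Rpl9 at 0.59 and Rpl3l at 0.48. For Rps26, Rpl9, Rpl37l1 and Rpl3l the probes of the gene disagreed on at least 1 of these arrays. The 2 probes of Rpl3l in striatum versus light touch read -0.95 and 0.31.

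The large-subunit median minus the small-subunit median was -0.09 in striatum versus no stimulus, between -0.05 and -0.02 on the next 3 arrays, 0.03 in leukocytes versus no stimulus and 0.13 versus light touch. In leukocytes versus no stimulus, 5 of 44 large-subunit and 8 of 25 small-subunit genes were lower past the 25% fold, against 14.4% of all genes. Versus light touch the counts were 11 of 44 and 6 of 25, against 17.7%. The share of lower genes was thus larger in the small subunit on the first array and nearly equal on the second.

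The stalk proteins, which draw elongation factors to the ribosome, did not move as a unit in leukocytes. Rplp0, the base of the stalk, was at 0.12 versus no stimulus and 0.02 versus light touch, and Rplp2 at -0.08 and 0.01. Rplp1 was at -0.28 and -0.33, with its 2 probes versus light touch at -0.59 and -0.06. The stalk members thus spanned both sides of 0. Rpl5 and Rpl11, which travel with 5S RNA and can hold Mdm2 in check, were at -0.09 and 0.18, and at -0.15 and -0.33.

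Rps6, the substrate of the S6 kinases, was at 0.19 and 0.12 in striatum and at 0.00 and 0.07 in the glands. Its leukocyte values were -0.09 and -0.17. Rpsa, also known as the laminin receptor, lay between -0.05 and 0.01 on all arrays. Of the other paralogue forms, Rpl7l1 was below 0 on all 6 arrays, from -0.31 to -0.07, whereas Rpl7 ran from -0.06 to 0.08. The 3 probes of Rpl7 in leukocytes versus light touch ran from -0.59 to 0.13. Rpl36al1 was at -0.23 on both leukocyte arrays while Rpl36a was at 0.02 and -0.08. Paralogue and partner thus differed in leukocytes for Rpl3l, Rpl7l1 and Rpl36al1, by amounts that no replicate bounds.

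A single sign on all 6 arrays was rare. Rps29, a zinc-binding small-subunit protein, was above 0 throughout, at 0.31, 0.17, 0.07, 0.16, 0.15 and 0.29 in the order striatum, salivary glands and leukocytes with no stimulus first. Rps4x, an X-linked small-subunit protein, was above 0 throughout as well, from 0.04 to 0.16. Rpl41, Rpl7l1 and Rps10 were below 0 on every array. These 2 and 3 of 70 genes stand against 7.89% and 6.08% of all genes, so a constant sign was no more common here than elsewhere.

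Across genes, the values in striatum versus no stimulus ran in the same direction as those in the glands and not as those in leukocytes. Over the 70 genes its values correlated with those of salivary glands versus no stimulus at Pearson's r 0.55 (Spearman's rho 0.57), against 0.19 (0.27) over all genes. With salivary glands versus light touch r was 0.57 (rho 0.63), against 0.23 (0.25). With leukocytes r was -0.23 (rho -0.28) versus no stimulus and -0.20 (-0.27) versus light touch. Over all genes these were 0.06 (0.05) and 0.06 (0.07). The other striatal array, versus light touch, gave r of 0.08 and 0.26 (rho 0.27 and 0.46) with both gland arrays. Over all genes r was 0.14 and 0.23 (rho 0.23 and 0.27) for these pairs. These are descriptions across genes, which are not replicates, and the arrays share the same probes and the same dye orientation.

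The 5′ runs were more frequent among ribosomal protein genes than elsewhere. A run by the rule above was found in 35 of 60 genes (58.3%), against 17.0% of 33469 promoters. In leukocytes versus no stimulus the median was -0.22 with a run (35 genes) and -0.10 without (24 genes with a value). Of these genes, 10 and 1 were lower past the 25% fold, against 14.4% of all genes. Versus light touch the medians were -0.14 and -0.05, and 11 and 3 genes were lower, against 17.7% of all genes. The lower quartile there was -0.35 with a run and -0.19 without, and the upper quartile 0.16 and 0.06. Genes with a run thus spread further both ways on that array. In striatum versus no stimulus the medians were the other way round, at 0.10 with a run and 0.02 without. Whether the run bears on these values was not tested, and the start in the table coincided with the start of the RefSeq gene record for 25 of the 60 genes, so a missing run may come from the start chosen.

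**Figure D3:**
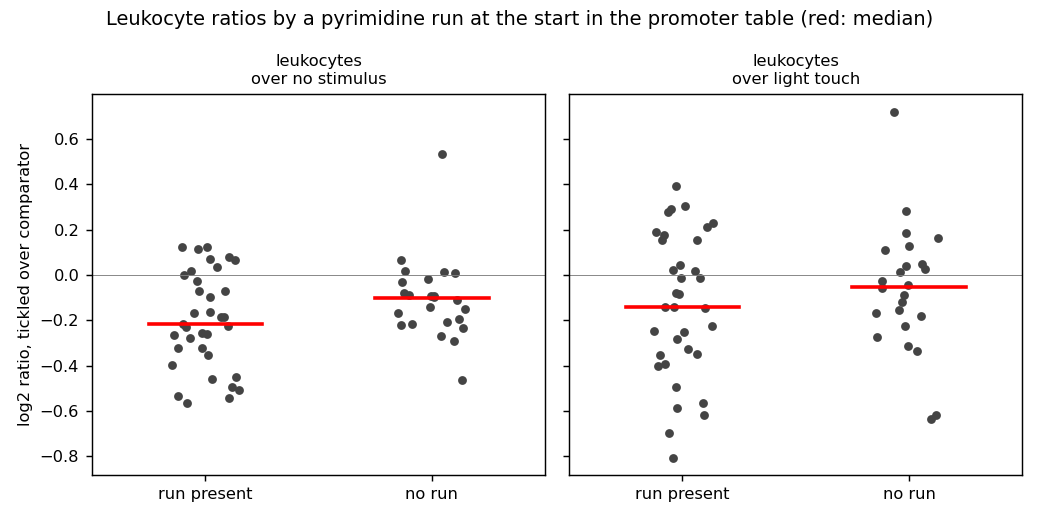
Log2 ratio of tickled over comparator (y axis) of 59 ribosomal protein genes in leukocytes, versus no stimulus (left) and versus light touch (right), by whether a pyrimidine run lies at the start in the promoter table (x axis: 35 genes with a run, 24 without), 1 point a gene and a red bar for the median. The medians with a run lie lower, at -0.22 against -0.10 on the left and -0.14 against -0.05 on the right, and the ranges overlap widely.

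Over 300 bases, 250 before and 50 after the start, 3 promoter motifs were searched on both strands. CCGGAAG, an ETS-type motif, was in 19 genes (31.7%) against 8.75% of promoters, AAGATGGC, a YY1-type motif, in 5 (8.33%) against 3.17%, and GGGCGG, an Sp1-type motif, in 35 (58.3%) against 33.1%. The reverse complement of CCGGAAG begins with 5 pyrimidines, so it can overlap a run. In leukocytes versus no stimulus the median was -0.18 for genes with CCGGAAG and -0.14 for those without. For GGGCGG the medians were -0.14 with and -0.22 without. For AAGATGGC they were -0.19 with and -0.16 without. Versus light touch the medians were -0.15 and -0.05 for CCGGAAG, -0.28 and -0.05 for AAGATGGC, which rests on 5 genes, and -0.12 and -0.02 for GGGCGG. Such matches do not show binding.

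Probes of the same gene did not always agree, and on 1 array they differed in a single direction. Of the 132 probes, 100 were named from RefSeq records and 32 from expressed sequence tags (EST) or other records. In leukocytes versus light touch, EST and other probes lay below the RefSeq probes of the same gene in 20 of 20 genes, against 60.2% of all 470 genes with both kinds of probe, by a median of 0.34. The medians of these 20 genes were -0.37 from EST and other probes and -0.01 from RefSeq probes. On the other leukocyte array EST and other probes were lower in 6 of 20 genes, against 50.4% of all genes with both kinds, and in striatum versus no stimulus in 4 of 21, against 28.9%. In striatum versus light touch they were lower in 16 of 21, against 47.2%. In the glands they were lower in 17 of 21 versus no stimulus, against 48.4%, and in 15 of 21 versus light touch, against 46.6%. EST and other probes of these genes were thus mostly lower on 4 of the 6 arrays and mostly higher on 2.

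With RefSeq probes alone, the median in leukocytes versus light touch was -0.02 in place of -0.09, and 14 genes were lower past the 25% fold in place of 17. Versus no stimulus the median stayed at -0.17, and 17 genes were lower in place of 13. No share of all genes was taken with RefSeq probes alone, so these counts have no background beside them. The values of Rps24, at -0.77 from RefSeq and -0.84 from other probes versus light touch, and of Rps25, at -0.61 and -0.87, were low with either kind. Rpl23a, at 0.08 and -0.60, and Rpl4, at -0.05 and -0.40, were low only with EST and other probes. These 4 genes were chosen for description here after their values by record were seen.

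**Figure D4:**
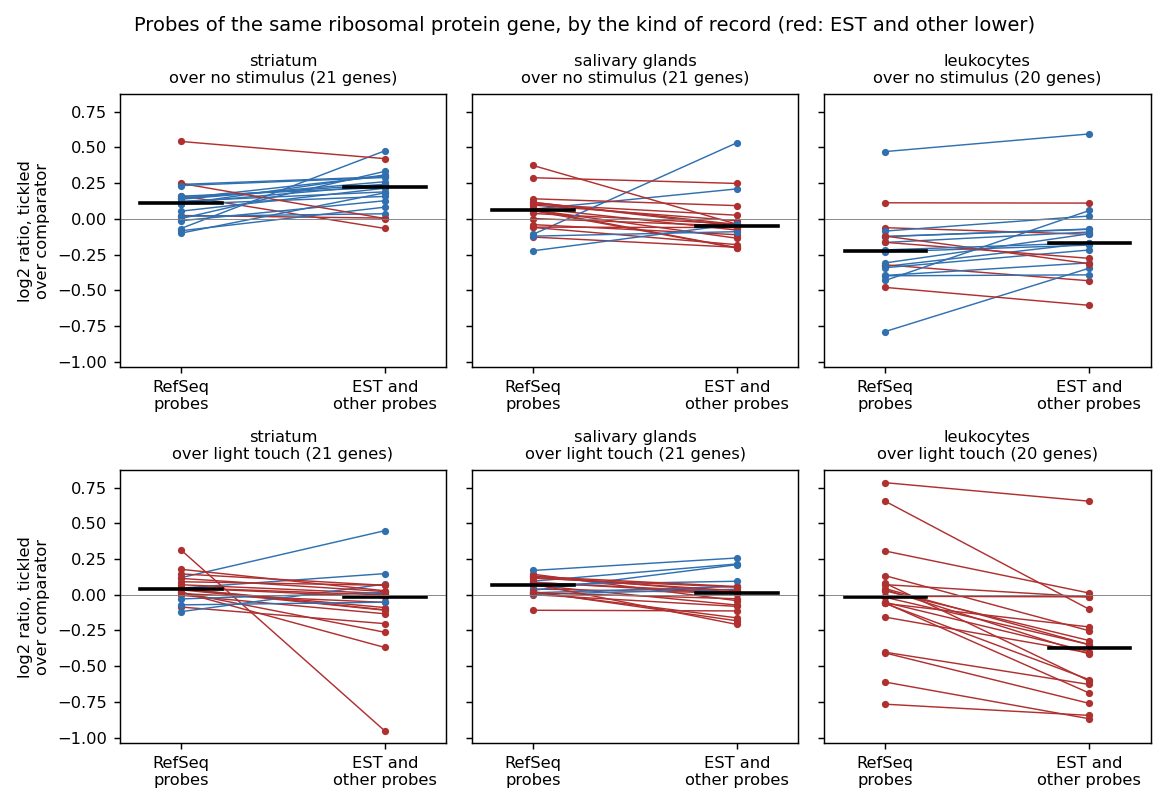
Log2 ratio of tickled over comparator (y axis) from RefSeq probes and from EST and other probes (x axis) of the same ribosomal protein gene, 1 line a gene and 1 panel an array, with black bars for the medians. Red lines mark genes in which EST and other probes were lower, as in all 20 genes in leukocytes versus light touch and in 4 of 21 in striatum versus no stimulus.

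Other lists of translation genes had leukocyte medians between -0.16 and 0.00. Of 15 other mRNAs known to carry a TOP motif, 3 were lower past the 25% fold and 1 higher in leukocytes versus no stimulus. Of all genes 14.4% were lower and 13.4% higher there. Versus light touch 3 were lower and 0 higher, against 17.7% and 20.6% of all genes. The medians were -0.08 and -0.16. Naca, a chaperone of nascent chains, was at -0.46 and -0.57, the histone chaperone Nap1l1 at -0.34 and -0.45, and the initiation factor Eif3e at -0.50 and -0.17. Above 0 lay 3 of the 15 versus no stimulus and 4 versus light touch, among them Vim at 0.48 and 0.01 and Fau at 0.12 and 0.06. The elongation factors had medians of -0.08 and -0.05 in leukocytes, with Eef1a1 at -0.14 and -0.05. In salivary glands versus no stimulus their median was -0.15. None of 7 passed the 25% fold there, where 8.33% of all genes were past it higher and 8.27% lower.

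Of 34 measured ribosome biogenesis genes, 1 was higher and 2 lower in leukocytes versus no stimulus (median -0.16), and 4 higher and 9 lower versus light touch (median -0.02). The shares of all genes on these arrays were 13.4% higher and 14.4% lower, and 20.6% higher and 17.7% lower, so the lower count versus no stimulus was under the background. Noc3l, a nucleolar assembly factor, was at -0.46 and -0.57, and Polr1a, the largest subunit of RNA polymerase I, at -0.32 and -0.38. In striatum versus no stimulus the biogenesis median was -0.11, where that of the ribosomal protein genes was 0.07. Among growth regulators, Myc, a transcription factor that drives ribosome production, was at -0.57 and -0.62 in leukocytes, and Eif4ebp1, a translation repressor inhibited by mTOR, at 0.43 and 0.57. Of this list 1 was higher and 2 lower of 13 measured versus no stimulus, and 3 higher and 1 lower of 14 versus light touch. The medians of the list on these arrays were -0.03 and -0.04.

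The ribosome of mitochondria has its own proteins, encoded by Mrpl and Mrps genes. In leukocytes versus no stimulus 0 of 55 were higher and 11 lower, with a median of -0.14, where 13.4% of all genes were higher and 14.4% lower. Versus light touch 4 of 52 were higher and 9 lower, with a median of 0.00, where the shares of all genes were 20.6% and 17.7%. The lower counts were near those shares and the higher counts under them. In salivary glands the medians were -0.09 and -0.06, and in striatum -0.01 and 0.01. The cytosolic and the mitochondrial genes thus both had a median below -0.1 in leukocytes versus no stimulus and on no other array.

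**Figure D5:**
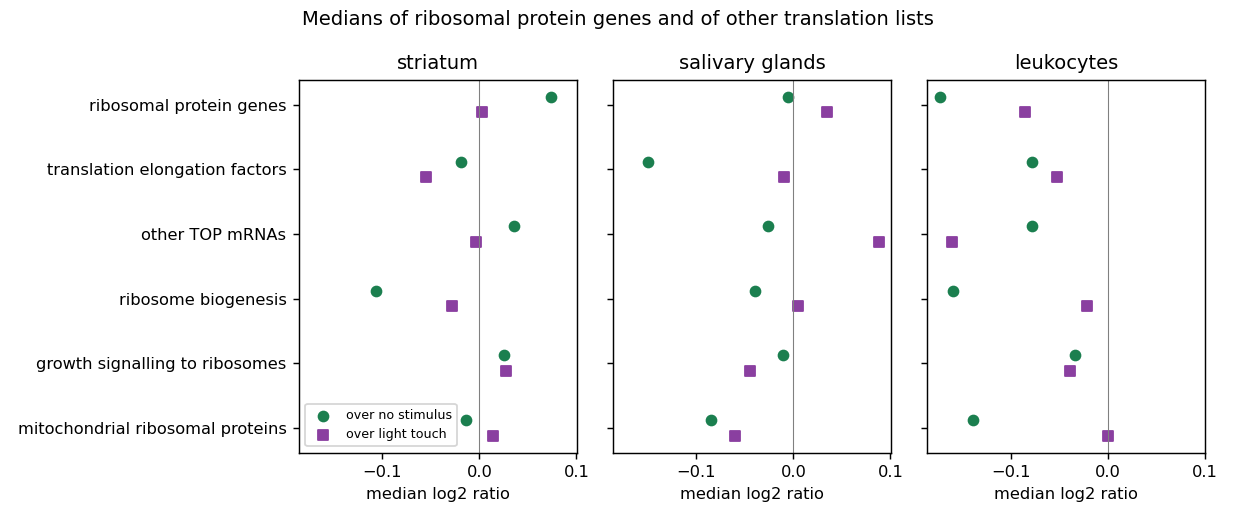
Median log2 ratio of tickled over comparator (x axis) of the ribosomal protein genes and of 5 other lists (y axis) in each tissue, circles versus no stimulus and squares versus light touch. In leukocytes the ribosomal protein genes have the lowest median versus no stimulus, -0.17, and the other TOP mRNAs the lowest versus light touch, -0.16.

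Markers of blood cells also differed on the leukocyte arrays, beside the ribosomal genes. Of 15 neutrophil markers 6 had a value, with a median of 0.77 versus no stimulus (range -0.19 to 0.93) and 0.21 versus light touch (-0.32 to 0.78). Csf3r, the receptor for the neutrophil growth factor G-CSF, was at 0.82 and 0.78. The 5 monocyte markers with a value versus no stimulus had a median of 0.46 and the 6 versus light touch one of 0.05. The T cell median was -0.16 (range -0.49 to 0.04) and -0.02 (-0.39 to 0.21) over 11 genes, with Il7r, the receptor for interleukin 7, at -0.49 and -0.39. Versus no stimulus, the neutrophil and monocyte medians were thus above 0 and the T cell median below. The B cell, platelet and erythroid medians on that array, given next, were above 0 as well, and the cytotoxic cell median was near 0.

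The 7 measured platelet markers had a median of 0.30 versus no stimulus and -0.64 versus light touch. B cell markers had medians of 0.24 and -0.04 over 7 genes, erythroid markers 0.13 and -0.02 over 7, and cytotoxic cell markers -0.01 and 0.01 over 8. The part of cell make-up in the ribosomal values of leukocytes was not tested. In striatum the median of cortical glutamatergic markers was -0.65 and -0.76 and that of astrocyte markers 0.23 and 0.04, and their part in the striatal values was not tested either.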

How the data were processed

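The deposited values are log2 ratios, 1 per feature and array, made by the authors from 6 two-colour Agilent arrays (44290 features, 500 ng of total RNA per the labels). Scans were read with Agilent Feature Extraction 9.1, per the submitters' processing notes. The sources used here give neither the normalization, nor the meaning of blank cells, nor the log base. Base 2 was assumed, and natural logs would multiply values by 1.44. Direction was taken from the dyes in the labels. Channel intensities were not used, so no level and no signal over background is given, and precision is limited by 1 array per comparison.

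Features were named through the platform annotation: 23535 carried 1 symbol, 48 several and 20707 none. Genes were summarised as the median of their probes that carried 1 symbol. Entrez identifiers matched RefSeq for 70 of the 71 genes and changed 0 symbols. Counts past a log2 ratio of 0.32 (the 25% fold) are set beside all named genes with a value on that array. Counting was tested on simulated data. Python 3.11.15, pandas 2.3.3, numpy 2.4.6 and matplotlib 3.10.9 were used.

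Members and lists were chosen with earlier results of these data known. Genes named are, per array, the 5 highest and 5 lowest; per tissue, those past that fold on both arrays (up to 10) and the 3 differing most between arrays each way; stalk, 5S-linked, Rps6, Rpsa and paralogue genes; those of 1 sign throughout; and up to 4 per other list and tissue. Rps3a enters among the lowest. Alternatives covered probe averaging, probe number, centring, log base, members, the fold and values of the other tissues; RefSeq probes alone and leaving out Rps19bp1 were added after seeing the data.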

Additional observations from a re-analysis of the deposited data

Results flagged for a closer look

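Differences between tissues were looked for in the median of the ribosomal protein genes and in the genes past the 25% fold the same way on both leukocyte arrays. Those listed had both arrays of 1 tissue on one side of 0 and both leukocyte arrays on the opposite side. None of these differences was tested, the arrays of a tissue share the tickled side, and the genes were taken for their low values in leukocytes. Each value below is the mean log2 ratio of both arrays in the first tissue minus that in leukocytes. For striatum against leukocytes, the median over all ribosomal protein genes differed by 0.167. The difference was 0.850 for Rps24, 0.774 for Rps25, 0.699 for Rpl23, 0.628 for Rpl31, 0.590 for Rps3a, 0.577 for Rpl30, 0.561 for Rps21 and 0.512 for Rpl39. For salivary glands against leukocytes it was 0.915 for Rps24, 0.730 for Rps25, 0.666 for Rps3a, 0.600 for Rpl23, 0.598 for Rps15a, 0.594 for Rpl31, 0.549 for Rps21, 0.488 for Rpl35a, 0.488 for Rpl39 and 0.484 for Rpl30. Rps24 had the widest gap of the genes listed in both pairs of tissues, and Rps25 the next.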

How the results depend on the processing

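Over 52 medians and counts, 42 of 438 alternative values moved and 396 did not, where a median counts as moved by more than the median SD between probes of a gene on that array (0.057 to 0.156) and a count by more than 1.5 times. The 22 values for members valued on all arrays could not move, since that setting drops only Rpl39l1, which has no value. Shifts inside that tolerance can be large beside a median near 0: with the probe nearest 0, the ribosomal median went to 0.0265 in striatum versus no stimulus and to -0.0406 in leukocytes versus light touch, and elongation factors changed sign to 0.00583 in striatum versus no stimulus. Of 233 alternatives for 35 gene values past the 25% fold, 221 kept their side, 10 fell within the fold and 2 reversed. The 35 with natural logs and the 23 with 2 or more probes could only keep their side. Neither setting brings a value nearer 0. Both reversals were Rpl9 in striatum versus light touch, 0.0194 with its probe nearest 0 and 0.0194 with RefSeq probes. The cause was not tested except where fewer genes enter or the fold is wider. The count past the 25% fold in striatum versus light touch (1) became 0 with probe means, the probe nearest 0, RefSeq probes or 1.5-fold, and 3 with natural logs or with the median of the other tissues subtracted. Versus no stimulus in striatum (1) it became 2 after centring, 11 with natural logs, 12 with other tissues subtracted and 0 at 1.5-fold. In salivary glands (0) it became 4 with natural logs, 2 with other tissues subtracted and 1 with RefSeq probes versus no stimulus, and 3 with other tissues subtracted versus light touch. In leukocytes versus no stimulus the lower count (13) became 8 with genes of 2 or more probes, 25 with natural logs and 0 at 1.5-fold, and the higher count (1) became 0 without paralogue forms or at 1.5-fold. Versus light touch the lower count (17) became 10 with 2 or more probes and 7 at 1.5-fold, and the higher count (2) became 8 with natural logs and 1 without paralogue forms or at 1.5-fold. At 1.5-fold in striatum, 0.485% of all genes were higher and 0.787% lower versus no stimulus, and 0.812% and 0.545% versus light touch. Where a setting changed the values or the genes measured, no share of all genes was taken, so those counts have no background. Genes of 1 sign on all arrays became 0 above and 1 below with 2 or more probes, and 0 and 0 with other tissues subtracted. With other tissues subtracted, the ribosomal median in striatum versus light touch was 0.0701, elongation factors were at 0.00622 in striatum versus light touch and -0.0335 in salivary glands versus no stimulus, biogenesis genes at 0.0471 in striatum and 0.0860 in salivary glands versus light touch, growth regulators at 0.0330 in salivary glands versus light touch, and mitochondrial genes at 0.0863 and 0.0786 in striatum. With 2 or more probes, elongation factors were at 0.143, 0.0100 and -0.0512 on the first 3 arrays, and biogenesis genes at -0.0794 and growth regulators at 0.0726 in leukocytes versus no stimulus. The other TOP mRNAs were at -0.00377 in salivary glands versus light touch with the probe nearest 0. Settings on ribosomal members were not applied to other lists. No paired analysis was possible because each comparison had 1 array.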

Other observations

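Besides the 132 probes used, 6 probes carried the symbol of a ribosomal protein gene together with another symbol and were left out. Their median log2 ratio was 0.26 in striatum versus no stimulus (range -0.07 to 0.38) and 0.04 versus light touch. In leukocytes it was -0.04 versus no stimulus (range -0.23 to 0.04) and -0.32 versus light touch (-0.75 to -0.16). All 6 thus lay below 0 in leukocytes versus light touch.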
